A study of Mus musculus with 6 samples.

Results

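Periportal hepatocyte markers are genes that mouse hepatocytes near the portal vein express at a higher level than hepatocytes near the central vein. A list of 8 such genes was followed in the livers of 8-week-old male mice: Cyp2f2, Hsd17b13, Gls2, Sds, Pigr, Aldh1b1, Ctsc and Apof. For each gene the probe set with the highest mean over the 6 arrays was to be taken, and 6 of the 8 genes had a probe set that the platform annotation names with that gene, 1 each. Gls2 and Sds have no probe set listed under their name in that annotation and were not analysed here. The 6 genes stand among 30701 genes named on 65956 probe sets.

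The study measured liver RNA from 3 male offspring of mothers given inulin, in a group titled HFD-inulin, and from 3 male offspring of mothers on a high-fat diet, in a group titled HFD, with 1 array per mouse. Inulin is a fermentable plant fibre, and the title of the inulin group also names HFD, but the labels do not say whether these mothers were fed that diet. The labels used here give no strain, no diet of the offspring themselves and no litter, so mice of a group may share a mother and p-values measure only the spread between these samples. Values are the authors' deposited log2 signals, so a difference is the log2 of a fold change. Levels are compared only within a probe set, since probe sets differ in how brightly they report their RNA.

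Blood enters the liver lobule at the portal vein and leaves at the central vein, and hepatocytes along this path divide their work. Those at the portal end favour gluconeogenesis, urea synthesis and the breakdown of several amino acids, while those at the central end, held there by WNT signals from the central vein, favour glutamine synthesis, bile acid synthesis and much of the cytochrome P450 oxidation of foreign compounds. The array measures whole liver, so a lower signal of a zone's gene cannot tell apart fewer cells of that zone and less RNA per cell. The zone of a cell was not observed here, and the name of the list rests on earlier knowledge of these genes.

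The 300 bases around the start of 3 of these genes are given first, because Cyp2f2 and Pigr had the largest differences between the groups and Hsd17b13 one of the smallest. They were taken from RefSeq (GRCm38.p6), which held an entry for 5 of the 6 measured genes, and run 5′ to 3′ on the gene's strand, with the start at base 251. Capitals mark the only matches found in them. The Cyp2f2 window is chr7:27119705-27120004 on the + strand, the Pigr window chr1:130826434-130826733 on the + strand, and the Hsd17b13 window chr5:103977339-103977638 on the - strand.
Cyp2f2: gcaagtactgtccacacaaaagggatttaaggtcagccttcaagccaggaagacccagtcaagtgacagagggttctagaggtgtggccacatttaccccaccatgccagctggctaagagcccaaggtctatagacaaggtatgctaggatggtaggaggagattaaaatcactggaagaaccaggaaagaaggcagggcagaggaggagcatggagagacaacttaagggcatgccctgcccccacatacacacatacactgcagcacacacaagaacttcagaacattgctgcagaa
Pigr: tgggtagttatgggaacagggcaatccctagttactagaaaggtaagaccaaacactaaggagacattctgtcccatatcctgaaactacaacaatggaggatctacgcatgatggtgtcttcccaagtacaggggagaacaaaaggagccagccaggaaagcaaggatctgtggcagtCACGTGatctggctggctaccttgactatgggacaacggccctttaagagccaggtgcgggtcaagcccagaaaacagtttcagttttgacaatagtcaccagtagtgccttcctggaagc
Hsd17b13: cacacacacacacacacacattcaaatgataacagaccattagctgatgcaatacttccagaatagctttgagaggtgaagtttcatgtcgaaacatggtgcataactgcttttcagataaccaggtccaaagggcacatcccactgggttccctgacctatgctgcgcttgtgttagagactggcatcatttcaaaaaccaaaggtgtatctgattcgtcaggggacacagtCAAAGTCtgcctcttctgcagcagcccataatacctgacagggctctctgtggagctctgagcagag

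Motif letters were searched on both strands. The TATA box TATAAA, the HNF4 letters CAAAGTCCA, the HNF1 letters GTTAATNAT, the TCF letters ATCAAAG, the C/EBP letters TTGCNNAA and the CRE letters TGACGTCA matched none of the 5 windows. They occur in 13.6%, 0.475%, 0.801%, 3.73%, 10.8% and 1.79% of 32851 RefSeq windows of the same length. The E-box CACGTG and the shorter HNF4 letters CAAAGTC, which are the start of the longer ones, were added after the sequences had been read. The E-box occurred at position -71 of Pigr and in 7.15% of all windows, and CAAAGTC at position -17 of Hsd17b13 and in 4.44% of all windows. A match is a description of these letters and not a bound site.

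The first principal component, with 53.1% of the variance, did not follow the groups. A set of 246 probe sets numbered on chromosome Y, whose 6 values are identical to those of another probe set, averaged 1.91, 1.60 and 3.15 (log2) in HFD-inulin arrays 1 to 3, against 1.34, 3.24 and 2.99 in HFD arrays 1 to 3. This puts HFD-inulin arrays 1 and 2 with HFD array 1, called the low arrays here, and HFD-inulin array 3 with HFD arrays 2 and 3, called the high arrays. The first principal component, taken over all probe sets, parted the arrays in the same way. It was -24.8, -47.6 and -31.1 in the low arrays, and 32.1, 37.8 and 33.5 in the high arrays. The origin of the split is not known, and the difference of each marker is therefore given over all arrays and within each side. Each side has 1 group with a single array, which the fit assumes to vary like the others.

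No periportal marker passed the test between the groups. The comparison was fitted over all 65956 probe sets with limma, and at a Benjamini-Hochberg adjusted p of 0.05 it called 0 of the 6 genes and 0.0% of all probe sets. At an unadjusted p under 0.05 it again held 0 of the 6, where 5.15% of all probe sets lay under that value. The mean was lower in HFD-inulin livers for 4 of the 6 genes, as it was for 56.5% of all probe sets. The median difference was -0.19 on the log2 scale, beside -0.02 over all probe sets. It was 0.002 over the 19921 named genes with a mean signal at or above the median probe set, where all 6 markers lie. Cyp2f2, Pigr and Aldh1b1 made up the lower side, with differences of -0.65, -0.46 and -0.31. Hsd17b13, Apof and Ctsc had differences from -0.06 to 0.07.

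**Figure D1:**
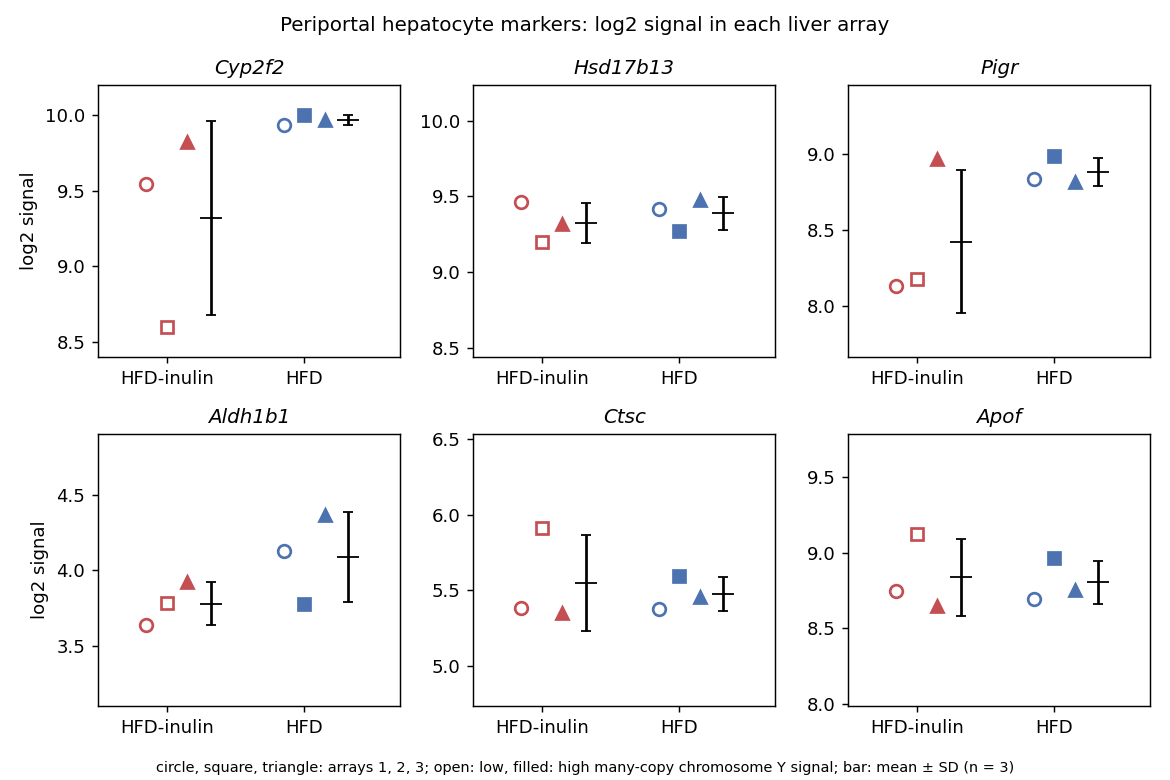
Log2 signal of the 6 measured periportal markers in each array, HFD-inulin left of HFD, with every panel spanning the same log2 range. Symbols tell arrays 1 to 3, open symbols are the low arrays and filled ones the high arrays, and bars give the mean ± SD (n = 3). Cyp2f2 and Pigr are low in HFD-inulin arrays 1 and 2, and Ctsc and Apof are highest in HFD-inulin array 2.

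Cyp2f2 is a cytochrome P450 known for oxidising naphthalene in mouse lung and liver. It gave a log2 signal of 9.54, 8.60 and 9.82 in HFD-inulin arrays 1 to 3, against 9.93, 10.00 and 9.97 in HFD arrays 1 to 3. Every HFD-inulin array lay below every HFD array, which was so, in this direction, for 6.02% of all probe sets and, in either direction, for 10.3%. Cyp2f2 was the 1 gene of the 6 whose groups did not overlap. The HFD livers were tightly grouped, with an SD of 0.03, while the HFD-inulin livers had an SD of 0.64 (n = 3 each), carried mostly by array 2. The difference of -0.65 (SE 0.29) is a 0.639-fold ratio, with a 95% interval of -1.35 to 0.06 and a limma adjusted p of 0.902. Without HFD-inulin array 2 the difference was -0.28, and without HFD-inulin array 3 it was -0.90.

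Pigr encodes the polymeric immunoglobulin receptor, which carries dimeric IgA across epithelia, into bile in the liver of rodents. It gave 8.13, 8.17 and 8.97 in HFD-inulin arrays 1 to 3, against 8.84, 8.99 and 8.82 in HFD arrays 1 to 3. HFD-inulin arrays 1 and 2 were below every HFD array, and HFD-inulin array 3 lay within the HFD range, so the groups overlapped. The means were 8.42 ± 0.47 in HFD-inulin and 8.88 ± 0.09 in HFD livers (SD, n = 3 each), with a difference of -0.46 (95% interval -0.99 to 0.08, limma adjusted p = 0.902). It was -0.31 without HFD-inulin array 1, -0.33 without array 2 and -0.73 without array 3. Bile duct epithelium also expresses Pigr. The 6 measured bile duct markers stood, on average, -0.02, 0.33 and -0.04 from the mean of the HFD livers in HFD-inulin arrays 1 to 3, against 0.04, -0.06 and 0.02 in HFD arrays 1 to 3. Their summed linear signal was 22.1 to 29.6 in HFD-inulin and 21.4 to 23.8 in HFD livers, with Cftr and Tspan8 below the median probe set. The part of bile duct cells in the Pigr signal was not tested.

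Aldh1b1 is a mitochondrial aldehyde dehydrogenase. It had 3.64, 3.78 and 3.92 in HFD-inulin arrays 1 to 3, against 4.13, 3.77 and 4.36 in HFD arrays 1 to 3. HFD array 2 lay at the level of HFD-inulin array 2, so the groups overlapped, and most of the spread was among the HFD livers. The difference was -0.31 (95% interval -0.69 to 0.07, limma adjusted p = 0.902), and -0.17 without HFD array 3.

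Hsd17b13 is a lipid droplet protein of hepatocytes, known in humans for its link to fatty liver disease. It gave 9.46, 9.20 and 9.31 in HFD-inulin arrays 1 to 3, against 9.42, 9.27 and 9.47 in HFD arrays 1 to 3. The arrays of the groups interleaved. The difference was -0.06, and its 95% interval of -0.29 to 0.16 was the narrowest of the 6 genes (limma adjusted p = 0.949). Next to it on chromosome 5 in RefSeq lies Hsd17b11, a paralogue that is also found on lipid droplets. Hsd17b11 had 8.56, 7.55 and 7.42 in HFD-inulin arrays 1 to 3, against 7.51, 7.24 and 7.28 in HFD arrays 1 to 3. Its difference of 0.50 (SE 0.29, limma adjusted p = 0.902) came mostly from HFD-inulin array 1, in which Hsd17b13 lay inside its HFD range.

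Ctsc and Apof had nearly the same profile over the arrays. Ctsc is cathepsin C, a lysosomal peptidase that activates serine proteases of immune granules, and Apof is apolipoprotein F, a secreted protein of lipoproteins. Ctsc had 5.38, 5.92 and 5.35 in HFD-inulin arrays 1 to 3, against 5.38, 5.60 and 5.45 in HFD arrays 1 to 3. Apof had 8.75, 9.13 and 8.65 in HFD-inulin arrays 1 to 3, against 8.70, 8.97 and 8.75 in HFD arrays 1 to 3. In both genes HFD-inulin array 2 was the highest of the 6 arrays, HFD array 2 came next and HFD-inulin array 3 was the lowest. The differences were 0.07 for Ctsc (95% interval -0.31 to 0.46) and 0.03 for Apof (95% interval -0.31 to 0.37), with limma adjusted p of 0.962 and 0.981. Without HFD-inulin array 2 they were -0.11 in each.

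Ctsc is also expressed by macrophages and neutrophils. The 10 Kupffer cell and macrophage markers averaged -0.10, -0.22 and -0.07 from the mean of the HFD livers in HFD-inulin arrays 1 to 3, against -0.08, 0.02 and 0.06 in HFD arrays 1 to 3. Their summed linear signal was 395.0 to 453.7 in HFD-inulin and 427.1 to 457.5 in HFD livers, and it was lowest in HFD-inulin array 2, where Ctsc was highest. The 9 neutrophil markers averaged -0.003, 0.35 and 0.01 in HFD-inulin arrays 1 to 3, against 0.06, -0.05 and -0.01 in HFD arrays 1 to 3. Of these 9 genes 5 had a lower mean in HFD-inulin (56.5% of all probe sets), and the median difference of the 9 was -0.01. Their summed signal was 24.1 to 31.3 in HFD-inulin and 23.9 to 25.4 in HFD livers, with S100a8, Ngp and Retnlg below the median probe set. The part of these cells in the Ctsc signal was not tested.

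The differences within the low arrays and within the high arrays were unlike in size and, in 3 genes, in sign. Each side has 1 group with a single array, so the split cannot be told apart from that array. Within the low arrays the differences were -0.86 for Cyp2f2, -0.69 for Pigr and -0.42 for Aldh1b1, and within the high arrays -0.16, 0.06 and -0.15. Ctsc and Apof were 0.27 and 0.24 higher in HFD-inulin within the low arrays, and their differences were -0.17 and -0.21 within the high arrays. Hsd17b13 had -0.09 and -0.06. With the split as a block in the fit, the differences were -0.31 for Pigr, 0.05 for Ctsc and 0.01 for Apof, with the sign they had over all arrays. The adjusted p was not under 0.05 for any of the 6 genes in that fit. Whether the low and high arrays differ in these values was not tested.

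**Figure D2:**
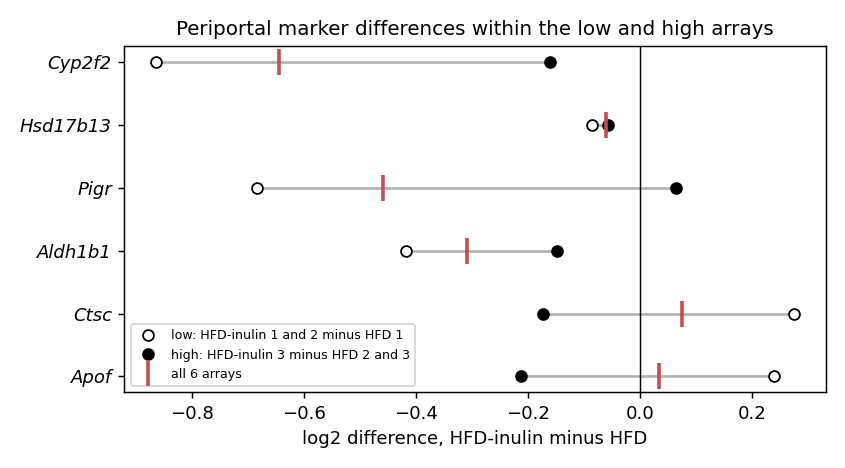
Log2 difference, HFD-inulin minus HFD, of each measured periportal marker within the low arrays (open circles), within the high arrays (filled circles) and over all 6 arrays (red bars). The open circles of Cyp2f2 and Pigr lie at -0.86 and -0.69 and their filled circles at -0.16 and 0.06.

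The 6 genes did not share a profile. Each profile was centred on its own mean, and profiles were compared by the root mean square of their differences over the 6 arrays, in log2 units. Ctsc and Apof were the nearest pair, at 0.05, and Cyp2f2 and Ctsc the farthest, at 0.66. Cyp2f2 and Pigr, the genes with the largest differences between the groups, were 0.30 apart. Over the 6 arrays the SD was 0.54 for Cyp2f2 and 0.40 for Pigr, and 0.11 to 0.27 for the other 4.

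The same measure was taken against 19915 other genes whose mean signal was not below that of the median probe set. The gene nearest to Cyp2f2 was Ces1e, a carboxylesterase, at 0.07. Ces1e had 6.61, 5.78 and 6.99 in HFD-inulin arrays 1 to 3, against 7.06, 6.99 and 7.07 in HFD arrays 1 to 3, and so had its lowest value in HFD-inulin array 2 as Cyp2f2 did. The nearest gene to Apof was Cyp21a1 (0.04), to Ctsc the predicted gene Gm10320 (0.04), to Pigr Gm5524 (0.05), to Aldh1b1 Gm4242 (0.08) and to Hsd17b13 4930524B15Rik (0.02). Gm5524 itself ran from 1.12 to 1.97 over the 6 arrays and 4930524B15Rik from 1.41 to 1.68, beside a median probe set of 1.22. The mean profile of the 6 markers was nearest to 7530416G11Rik (0.02), Bcar1 (0.03), Car5b (0.03), 4930500L23Rik (0.03) and Gm15105 (0.03). Car5b was also near the median probe set, from 1.27 to 1.64 over the 6 arrays. Closeness over 6 arrays is given as a description only.

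Other periportal genes were set beside the 6 markers, from a list that was chosen with earlier results of these data known. Of 17 measured, 0 passed the adjusted test, 8 were lower and 0 higher in HFD-inulin at an unadjusted p under 0.05 (2.64% and 2.52% of all probe sets), and in 7 the HFD-inulin arrays lay below all HFD arrays (6.02% of all probe sets). The mean was lower for 13 (56.5% of all probe sets), with a median difference of -0.65, which was -0.40 without HFD-inulin array 2 and -0.13 within the high arrays. Those with the smallest p were Gldc, of the glycine cleavage system (-0.82, SE 0.10), Pck1, which commits oxaloacetate to gluconeogenesis (-0.65, SE 0.20), Cps1, the entry to the urea cycle (-0.68, SE 0.22), Mfsd2a, a lysophosphatidylcholine transporter (-0.80, SE 0.28), Hal, histidine ammonia-lyase (-1.08, SE 0.38), and Fbp1, a gluconeogenic phosphatase (-0.45, SE 0.16). Their limma adjusted p was 0.902 each. Within the high arrays Gldc had -0.85 and Mfsd2a -0.68, while Pck1 had -0.23, Cps1 -0.22, Hal -0.23 and Fbp1 -0.13. Fbp1 was -0.26 without HFD-inulin array 2. The 4 genes of the list with a higher mean in HFD-inulin were G6pc (0.36, SE 0.19), Vtn (0.17), Arg1 (0.15) and Cdh1 (0.01). G6pc had 0.35 within the low and 0.45 within the high arrays.

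Cyp2f2 lay close to Pck1 and Cps1 in its difference, while its HFD-inulin arrays stood in another order than in Pck1 and Cps1. The order of Cyp2f2 in HFD-inulin, lowest in array 2 and highest in array 3, was not particular to it. Asl, Otc, Fbp1, Hal, Uroc1, Hsd17b6 and Etnppl of the other periportal genes had it, and the remaining genes of that list had other orders. Pck1 had 8.70, 8.98 and 9.51 in HFD-inulin arrays 1 to 3, against 9.65, 9.88 and 9.61 in HFD arrays 1 to 3. Cps1 had 9.18, 9.24 and 10.00 in HFD-inulin arrays 1 to 3, against 10.03, 10.34 and 10.11 in HFD arrays 1 to 3. In Cps1 and Pigr alike, HFD-inulin arrays 1 and 2 were low and close together and array 3 was near the HFD level, whereas Cyp2f2 was lowest in array 2 with array 1 closer to HFD. In Gldc all 3 HFD-inulin arrays were low, at 5.31, 5.70 and 5.49, against 6.31, 6.36 and 6.31 in HFD arrays 1 to 3.

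**Figure D3:**
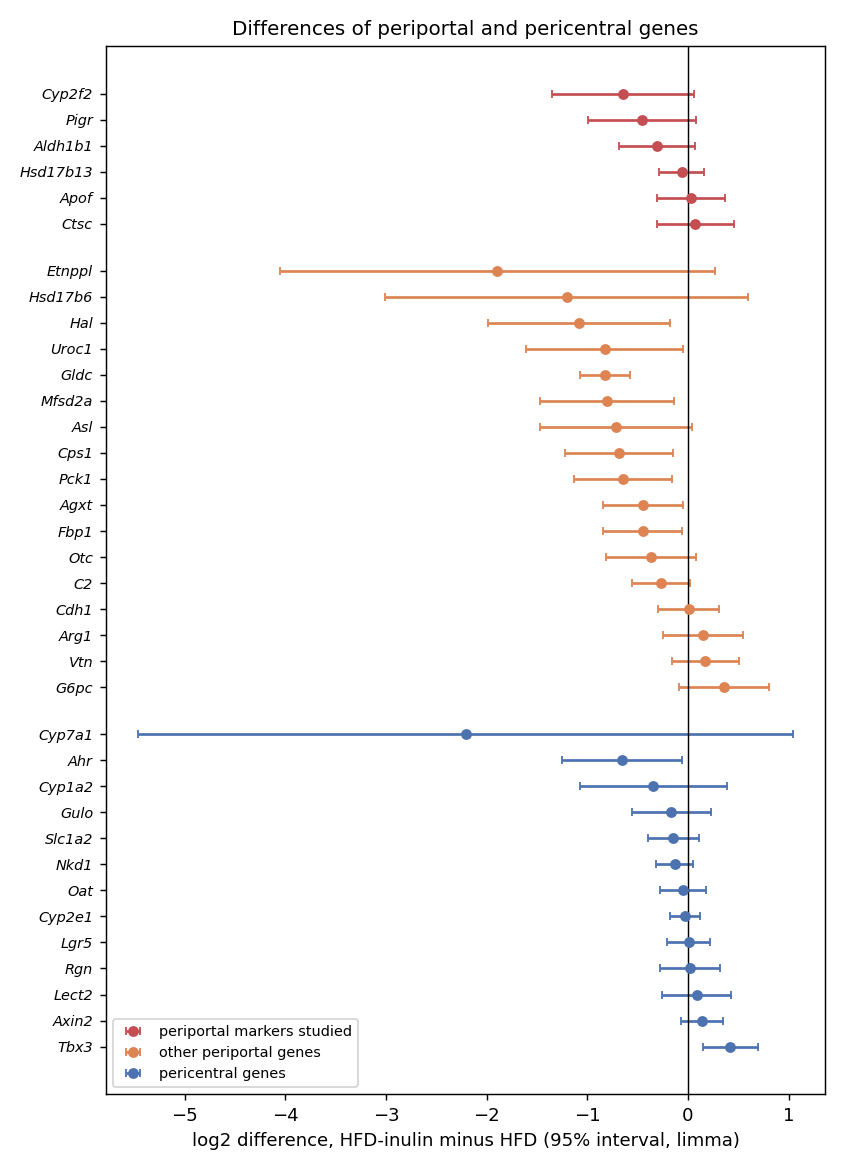
Log2 difference, HFD-inulin minus HFD, with its 95% interval from limma, for the 6 periportal markers studied, 17 other periportal genes and 13 pericentral genes, each sorted by its difference. The median lies at -0.19, -0.65 and -0.05 in these lists, and all 6 intervals of the markers studied include 0.

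Genes of the opposite zone gave a median of -0.05 over 13 measured pericentral genes, and 0 passed the adjusted test. The mean was lower in HFD-inulin for 8 of them (56.5% of all probe sets). At an unadjusted p under 0.05, 1 was lower and 1 higher (2.64% and 2.52% of all probe sets). The groups did not overlap in 1 gene lower and 1 gene higher in HFD-inulin (10.3% of all probe sets, in either direction). The mean difference of the 13 genes was -0.24, beside -0.23 for the 6 markers, but it includes Cyp7a1, by far the largest difference of the list. The median of the 6 markers was -0.19. Tbx3, a T-box factor of WNT-responsive hepatocytes, was 4.21 ± 0.15 in HFD-inulin and 3.79 ± 0.16 in HFD livers (SD, n = 3 each), a difference of 0.42. Ahr, the aryl hydrocarbon receptor, had -0.66, Nkd1, a WNT feedback inhibitor, -0.13, and Cyp7a1, the rate-limiting enzyme of bile acid synthesis, -2.21 with an SE of 1.36. Their limma adjusted p was 0.902 each. Cyp7a1 was -0.75 without HFD-inulin array 2 and -3.69 without HFD-inulin array 3, and Ahr was -0.37 without HFD-inulin array 1. No test compared the zones.

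Among 13 measured factors that set or read the zones, 0 passed the adjusted test. Hnf4a, a nuclear receptor that maintains hepatocyte genes, had the smallest p, with 6.83 ± 0.05 in HFD-inulin and 7.43 ± 0.04 in HFD livers (SD, n = 3 each) and a difference of -0.60 (limma adjusted p = 0.390). Its difference was -0.52 in the low and -0.68 in the high arrays. Rspo3, a WNT enhancer made by central vein endothelium, had 0.20, Znrf3, a WNT receptor antagonist, -0.21, and the hepatocyte factor Cebpa -0.34 (limma adjusted p = 0.902 each). Within the low and the high arrays Rspo3 had 0.34 and 0.03, Znrf3 -0.26 and -0.06, and Cebpa -0.64 and 0.08. Cebpa was -0.13 without HFD-inulin array 2 and -0.52 without HFD-inulin array 3. Among 14 measured paralogues and partners of the markers, 0 passed. Got1, an aminotransferase linked to gluconeogenesis, had -0.97 (SE 0.33) and Ctsa, another lysosomal cathepsin, -0.32 (SE 0.11), with a limma adjusted p of 0.902 each. Within the low and the high arrays Got1 had -1.20 and -0.26, and Ctsa -0.45 and -0.28. Jchain, the joining chain of the IgA that Pigr carries, lay below the median probe set in its mean.

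The mean of the 6 markers stood at -0.29, -0.30 and -0.10 from the mean of the HFD livers in HFD-inulin arrays 1 to 3, against -0.04, -0.001 and 0.04 in HFD arrays 1 to 3. The 17 other periportal genes stood at -0.65, -0.92 and -0.11 in HFD-inulin arrays 1 to 3, against -0.06, 0.09 and -0.03 in HFD arrays 1 to 3. Etnppl and Hsd17b6, with the largest differences of these genes (-1.89 and -1.21), weigh heavily on the mean in HFD-inulin array 2. They had 2.14 and 4.94 in that array, against means of 6.12 and 7.78 in HFD livers. The 13 pericentral genes were at -0.33, -0.54 and 0.17 in HFD-inulin arrays 1 to 3, against 0.07, -0.06 and -0.01 in HFD arrays 1 to 3. Cyp7a1, with the largest difference of that list, weighs heavily on its mean. It had 4.18, 1.31 and 7.18 in HFD-inulin arrays 1 to 3, against 7.24, 5.84 and 6.21 in HFD arrays 1 to 3. The pericentral mean is therefore not a shift shared by all genes of that zone. The 12 general hepatocyte markers stayed between -0.06 and 0.03 in all 6 arrays, with a summed linear signal of 18355.1 to 18883.9 in HFD-inulin and 18795.8 to 19263.9 in HFD livers. The 17 measured acute phase genes, whose proteins hepatocytes secrete in inflammation, averaged 1.05, 2.07 and -0.22 in HFD-inulin arrays 1 to 3, against 0.01, 0.30 and -0.31 in HFD arrays 1 to 3. The mean was higher in HFD-inulin for 17 of these 17 genes, where 56.5% of all probe sets had a lower mean. Of the 17, 0 passed the adjusted test, and 1 was higher in HFD-inulin at an unadjusted p under 0.05 (2.52% of all probe sets). In 0 of the 17 did the groups not overlap (10.3% of all probe sets, in either direction). The median difference of the 17 genes was 0.50 over all arrays, 0.84 within the low arrays and -0.215 within the high arrays. The part of the acute phase in the marker values was not tested.

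**Figure D4:**
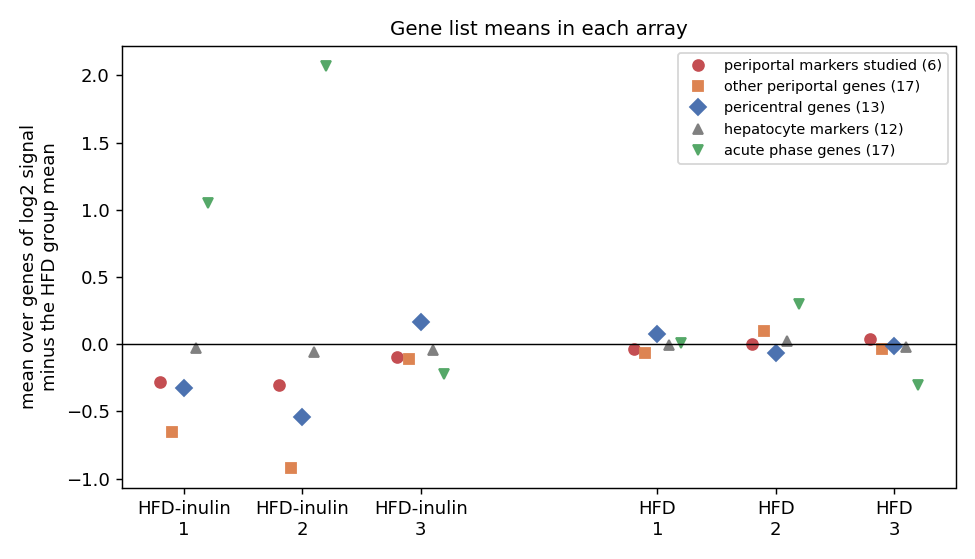
List means in each array, as log2 signal relative to the mean of the HFD livers, HFD-inulin left of HFD. In HFD-inulin array 2 the 6 periportal markers studied are at -0.30, the other periportal genes at -0.92, the pericentral genes at -0.54 and the acute phase genes at 2.07, and in HFD-inulin array 3 they are at -0.10, -0.11, 0.17 and -0.22. The pericentral mean in HFD-inulin array 2 includes Cyp7a1 at 1.31, against 5.84 to 7.24 in HFD arrays. The mean of the other periportal genes in that array includes Etnppl at 2.14, against 5.86 to 6.30 in HFD arrays. It also includes Hsd17b6 at 4.94, against 7.56 to 8.10 in HFD arrays.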

How the data were processed

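Liver total RNA was extracted with TRIzol and labelled with biotin, 1 array per mouse, per the labels' protocols. The authors deposited log2 signals; the submitters' processing notes name Affymetrix Expression Console 1.0. Summarization method and genome build: not given in the sources used here. That the scale is log2 follows from the values, about 0 to 12 in each array. No scanner file was used, so slide and scan batches were not tested, and 3 arrays per group limit the precision.

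Probe sets were named through GEO's platform annotation, with older symbols updated through RefSeq. Of 65956 probe sets, 31258 had 1 gene, 1492 several and 33206 none listed. HFD-inulin minus HFD was tested with limma 3.58.1 (R 4.3.3; lmFit, eBayes, no filter or covariate, two-sided, Benjamini-Hochberg over all probe sets, threshold 0.05). The fit was tested on simulated data with independent noise in each array. These data do not hold the split of the arrays, so that test cannot show how the fit handles it. Markers and lists were chosen with earlier results of these data known. The text names all measured markers, the members of the other lists with the smallest p (6 of the other periportal genes, 4 of each further list described), and the genes with the nearest profiles. Further members of the other periportal list are named where its orders, its higher genes or its mean are described. List values are means of log2 signal, or sums of linear signal. Lymphocyte and plasma cell (9 genes), endothelial (9) and stellate (9) markers had median differences of -0.07, -0.11 and -0.004. Alternatives were other normalizations, variance priors, a filter, array weights, blocks, array subsets and probe set choices.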

Additional observations from a re-analysis of the deposited data

How the results depend on the processing

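Of the 6 markers, 0 passed an adjusted p of 0.05 under the 17 alternatives run for each gene, and the same holds for the 17 other periportal and 13 pericentral genes. Over all probe sets a trended, robust variance prior in limma called 4, against 0 in the reported fit, and the cause was not tested. For the other periportal genes the median difference was -0.13 within the high arrays. Of the pericentral genes 2 were lower within the high arrays, and 5 to 11 with 1 array left out. With 1 array left out the median of the markers ran from -0.26 to -0.10, the value nearest to 0 being that without HFD array 3. Among the markers and the genes named with the smallest p in their lists, the sign was turned within the high arrays for Pigr (0.063), Ctsc (-0.17), Apof (-0.21), Cebpa (0.080) and Cyp7a1 (1.15). Apof was also turned by array weights (-0.0005) and quantile normalization (-0.050). With 1 array left out Apof ran from -0.11 to 0.13, Ctsc from -0.11 to 0.17 and Hsd17b13 from -0.13 to 0.001. Over the alternatives Cyp2f2 ran from -0.90 to -0.16 and Pigr from -0.73 to 0.06. The replicate numbers of the titles were not read as pairs, since the labels do not say that they are. The deviations of same-numbered arrays correlated at 0.26, -0.28 and 0.40 over probe sets. Those of differently numbered arrays ran from -0.54 to 0.42, so these correlations cannot decide whether arrays are paired. The replicate block called 0 probe sets, with 3349 at an unadjusted p under 0.05 against 3399 without the block, and 0 markers. Markers near 0 are limited by the spread of 3 arrays per group.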
